A study of Homo sapiens with 12 samples.

Results

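RELA encodes p65, a DNA-binding subunit of the transcription factor NF-kB, and the comparison described here set cells treated with an siRNA against RELA (siRelA) against cells treated with a negative control siRNA (siNC). All cells were of the MDA-MB-231 line, an established human line from a breast cancer that lacks hormone receptors and HER2 amplification and has a mesenchymal-type expression pattern. The 6 arrays compared, of 12 in the study, were 1 siRelA array without TNFalpha, 1 siRelA array after 4 h with TNFalpha at 10 ng/ml, 3 siNC arrays without TNFalpha (replicates 1, 2 and 3) and 1 siNC array after the same TNFalpha treatment. The other 6 arrays held cells given an siRNA against RELB (siRelB, 1 array without and 1 with TNFalpha) or against EZH2 (siEZH2, 3 without and 1 with). Arrays entered by their labels and genes by detection. A gene entered if its probe was detected on at least 3 of the 12 arrays, which gave 12275 genes. Of these, 379 had a best probe detected on exactly 3 arrays, while 631 genes whose best probe reached 2 arrays stayed out. The gene lists used below were chosen with earlier results of these data known. The study concerned how EZH2 bears on NF-kB target genes in breast cancer, and this comparison asks which genes changed with siRelA. Sequence and number of the siRNAs were not given in the sources used here, so an effect of 1 siRNA sequence on other transcripts cannot be told apart from loss of RELA.

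NF-kB proteins are dimers of the 5 subunits RELA, RELB, REL, NFKB1 (p105/p50) and NFKB2 (p100/p52). In resting cells IkB proteins hold the dimers in the cytoplasm. TNFalpha binds its receptor, the IKK kinases then mark IkB for destruction, and the freed dimers bind kappaB sites in DNA and switch on cytokine, survival and adhesion genes, together with the genes for IkB alpha (NFKBIA) and A20 (TNFAIP3), which shut the pathway down again. MDA-MB-231 is known for active NF-kB even without a stimulus.

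Values are normalized log2 intensities of bulk RNA, in which fewer expressing cells and less RNA per cell cannot be told apart. They are given for siRelA in the order without TNF, with TNF, and for siNC in the order replicates 1, 2 and 3 without TNF, then with TNF. A log2 change is siRelA minus siNC with its standard error (SE), estimated with limma from a model that holds siRNA and TNF as additive terms and uses all 12 arrays. It sets the 2 siRelA arrays against the 4 siNC arrays, while the spread is estimated with the siEZH2 and siRelB arrays too, and a gene passed at an adjusted p under 0.05. Where a gene was not detected on either siRelA array, only a lower bound of the fold is given. Between 12337 and 12908 probes were detected per array. The median signal of undetected probes was 59.8 and 61.5 on the siRelA arrays and 67.3, 101.5, 68.8 and 70.3 on the siNC arrays, so siNC replicate 2 had the highest background. Beads per probe averaged 23.6 on the siNC TNF array and 40.8 to 43.1 on the others. Replicates 1 and 2 of siNC also fell in a processing set apart from the other siNC and siRelA arrays (the first set, against the second set). The labels name no such sets, which were inferred by comparing the authors' processed values with the signals. Counts are therefore given again within the second set of 8 arrays, which holds both siRelA arrays, siNC replicate 3 and the siNC TNF array. It holds 1 array of each siRNA in each TNF state and no replicates. Its spread is therefore only the departure from additive siRNA and TNF terms. The line's markers VIM, CD44, AXL, MSN and CAV1 were detected on all 12 arrays, and the luminal markers ESR1 and FOXA1 on none. EPCAM, KRT19 and ERBB3, which mark epithelial cells, were detected on all 12 too, the luminal marker GATA3 on 9 and the epithelial cadherin CDH1 on 7.

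Knockdown was visible in the targeted gene. RELA read 5.03 and 5.00 with siRelA, where it was not detected on either array, against 7.01, 7.34, 6.78 and 6.89 with siNC. Both siRelA values lay below all siNC values, at least 3.52-fold lower (adjusted p = 0.00164). The call was lost when the siRelA array without TNF was left out (adjusted p = 0.0594).

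In all, 238 of the 12275 genes passed (1.94%), 164 of them lower (1.34%) and 74 higher (0.603%) with siRelA, and the median log2 change of all genes was 0.03. A fit of the 2 siRelA and 4 siNC arrays alone called 31 genes, 25 lower and 6 higher. By over 4-fold on the fitted scale, 37 genes fell and 6 rose. Every one of the 238 differed in the same direction without TNF, with TNF, and against siNC replicate 3 alone, and none had overlapping siRelA and siNC values. The 238 were picked by a test on these same arrays, so this agreement largely follows from the choice. Non-overlap by itself was common, with both siRelA arrays below all 4 siNC arrays for 1490 genes (12.1%) and above for 1851 (15.1%). Of the lower genes 28 were not detected on either siRelA array. Within the second set 2148 genes passed (17.5%), 1067 lower (8.69%) and 1081 higher (8.81%), and all 238 were among them with the same sign. Second-set counts of list members below stand against these larger shares. Both fits use the same siRelA arrays, so the overlap of their calls is no independent check. Leaving out siRelA CTRL gave 42 genes, leaving out siRelA TNF 40, leaving out siNC TNF 102, and leaving out siNC replicate 2 gave 463. Of the 105 genes that passed and fall under the naming rule, 21 kept their call whichever array was left out, 42 lost it only when 1 or the other siRelA array was left out, and 42 lost it also without another array, as given for the genes named with each group below. Of the same 105, 78 lost their call with the 6 siRelA and siNC arrays alone and 64 with the authors' processed values. Those values were centred separately in the 2 sets, and with the set as a term in the model 10 lost their call.

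**Figure D1:**
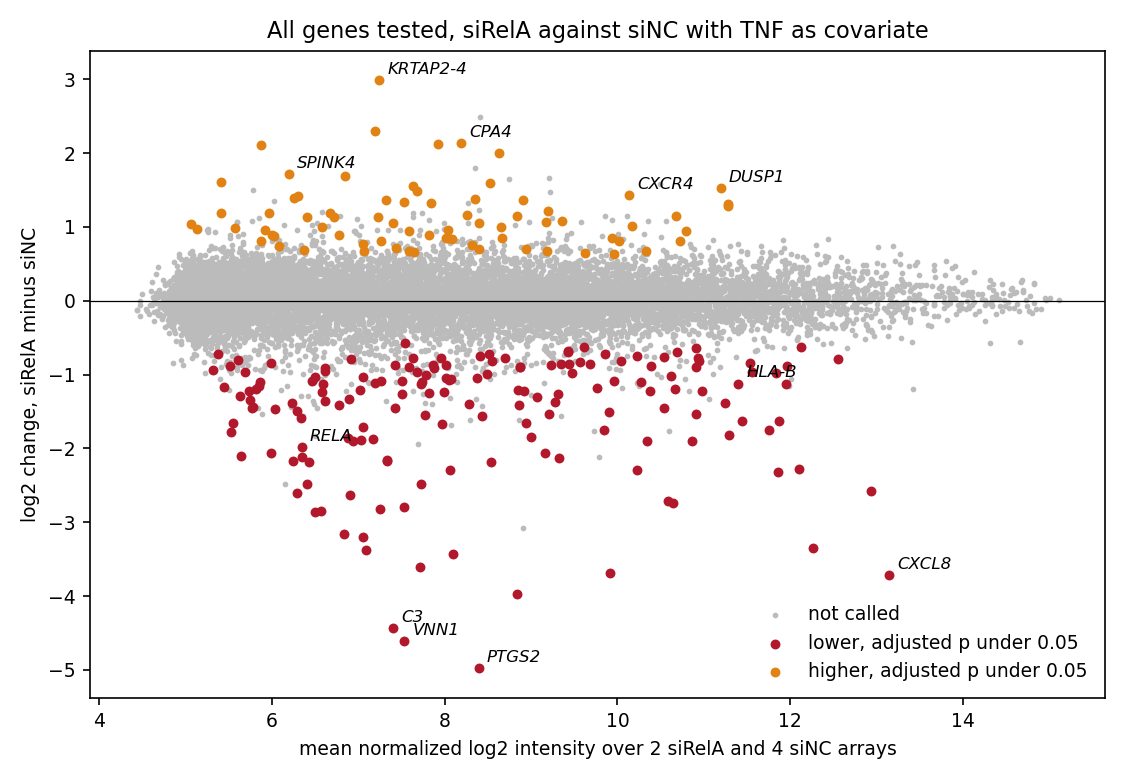
Log2 change with siRelA relative to siNC (vertical axis) against mean normalized log2 intensity over the 2 siRelA and 4 siNC arrays (horizontal axis) for all 12275 genes, with each point 1 gene. The 164 lower genes (red) extend to -4.98 for PTGS2 and lie at all intensities, while the 74 higher genes (orange) extend to 2.99 for KRTAP2-4.

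Other subunits of NF-kB were lower along with RELA. RELB, the subunit of the alternative pathway, read 5.85 and 6.14 with siRelA and 8.16, 7.76, 7.77 and 8.32 with siNC (log2 change -2.17 ± 0.23, adjusted p = 0.0013). NFKB2, its usual partner, read 7.08 and 7.42 with siRelA and 8.61, 7.84, 8.35 and 8.67 with siNC (log2 change -1.23 ± 0.22, adjusted p = 0.0162). Both fell, and siRelA and siNC values did not overlap for either. NFKB1, which yields the p50 partner of RELA, read 10.67 and 10.62 with siRelA against 11.27, 11.71, 11.14 and 11.69 with siNC (log2 change -0.90 ± 0.22, adjusted p = 0.0694). REL read 5.31 and 5.54 with siRelA against 5.93, 5.88, 6.199 and 6.81 with siNC (log2 change -0.86 ± 0.24, adjusted p = 0.124). Neither NFKB1 nor REL passed, although in both the siRelA values lay below all siNC values. Of the 5 subunits 3 were called lower, against 1.34% of all genes, with a median log2 change of -1.23. Within the second set all 5 were called lower, against 8.69% of all genes there. Both counts and the median include RELA itself, the target of the siRNA. NFKB2 lost its call without siNC TNF, siRelA CTRL or siRelA TNF (adjusted p up to 0.235), and RELB kept it whichever array was left out.

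Among the 12 genes for IkB proteins and the kinases that act on them, 2 fell and none rose (median log2 change -0.18, and 4 lower in the second set). NFKBIA, the IkB that NF-kB itself induces, read 10.57 and 10.86 with siRelA and 12.21, 13.36, 12.46 and 13.14 with siNC (log2 change -2.28 ± 0.36, adjusted p = 0.00904), a 4.86-fold lower level. IKBKE, an inducible IKK-related kinase, read 6.80 and 6.76 with siRelA and 8.34, 8.37, 8.01 and 8.37 with siNC (log2 change -1.55 ± 0.18, adjusted p = 0.00164). These were the members with non-overlapping values and a passing test. NFKBIE, another inducible IkB, read 7.90 and 7.86 with siRelA and 8.46, 9.03, 8.34 and 8.98 with siNC and did not pass (log2 change -0.95 ± 0.27, adjusted p = 0.126). The core IKK subunits had small log2 changes and did not pass: CHUK 0.16 ± 0.13, IKBKB -0.24 ± 0.18 and IKBKG -0.05 ± 0.21. Nor did NFKBIB (-0.12, with another probe at 0.34), NFKBIZ (-0.04), NFKBID (0.10), BCL3 (-0.78 ± 0.57), TBK1 (-0.42) or MAP3K14 (0.09), the kinase of the alternative pathway. NFKBIA lost its call without either siRelA array (adjusted p up to 0.18).

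Receptor-proximal signalling genes fell in 6 of 31 cases and rose in none, with a median log2 change of -0.11 (-0.08 with undetected members at their bound) and 10 lower in the second set. TNFAIP3 (A20), a ubiquitin-editing brake on the pathway, read 6.41 and 7.14 with siRelA and 7.95, 8.86, 8.43 and 9.59 with siNC (log2 change -2.30 ± 0.33, adjusted p = 0.00644). BIRC3, an inhibitor of apoptosis that acts at the TNF receptor, read 8.63 and 9.39 with siRelA and 11, 11.45, 10.97 and 12.08 with siNC (log2 change -2.71 ± 0.29, adjusted p = 0.0015), and the mean of its probes did not pass (adjusted p = 0.091). TNIP1, which binds A20, had a log2 change of -1.45 ± 0.24 (adjusted p = 0.0107). All siRelA values of these 3 genes lay below all siNC values. IRAK2, a kinase of interleukin-1 and Toll-like receptor signalling, read 7.91 and 8.14 with siRelA and 9.62, 10.59, 9.35 and 10.31 with siNC (log2 change -2.14 ± 0.34, adjusted p = 0.0101). IRAK3, an inhibitor of that kinase family, was at least 1.56-fold lower (adjusted p = 0.00748), and TRAF3, which restrains the alternative pathway, fell 1.79-fold (log2 change -0.84 ± 0.16, adjusted p = 0.0237). TRAF3 lost its call without siNC replicate 1, siNC replicate 3, siNC TNF, siEZH2 TNF or either siRelA array (adjusted p up to 0.445). TNFAIP3, TNIP1, IRAK2 and IRAK3 lost theirs only without 1 or both siRelA arrays, with adjusted p up to 0.14, 0.213, 0.204 and 0.164.

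**Figure D2:**
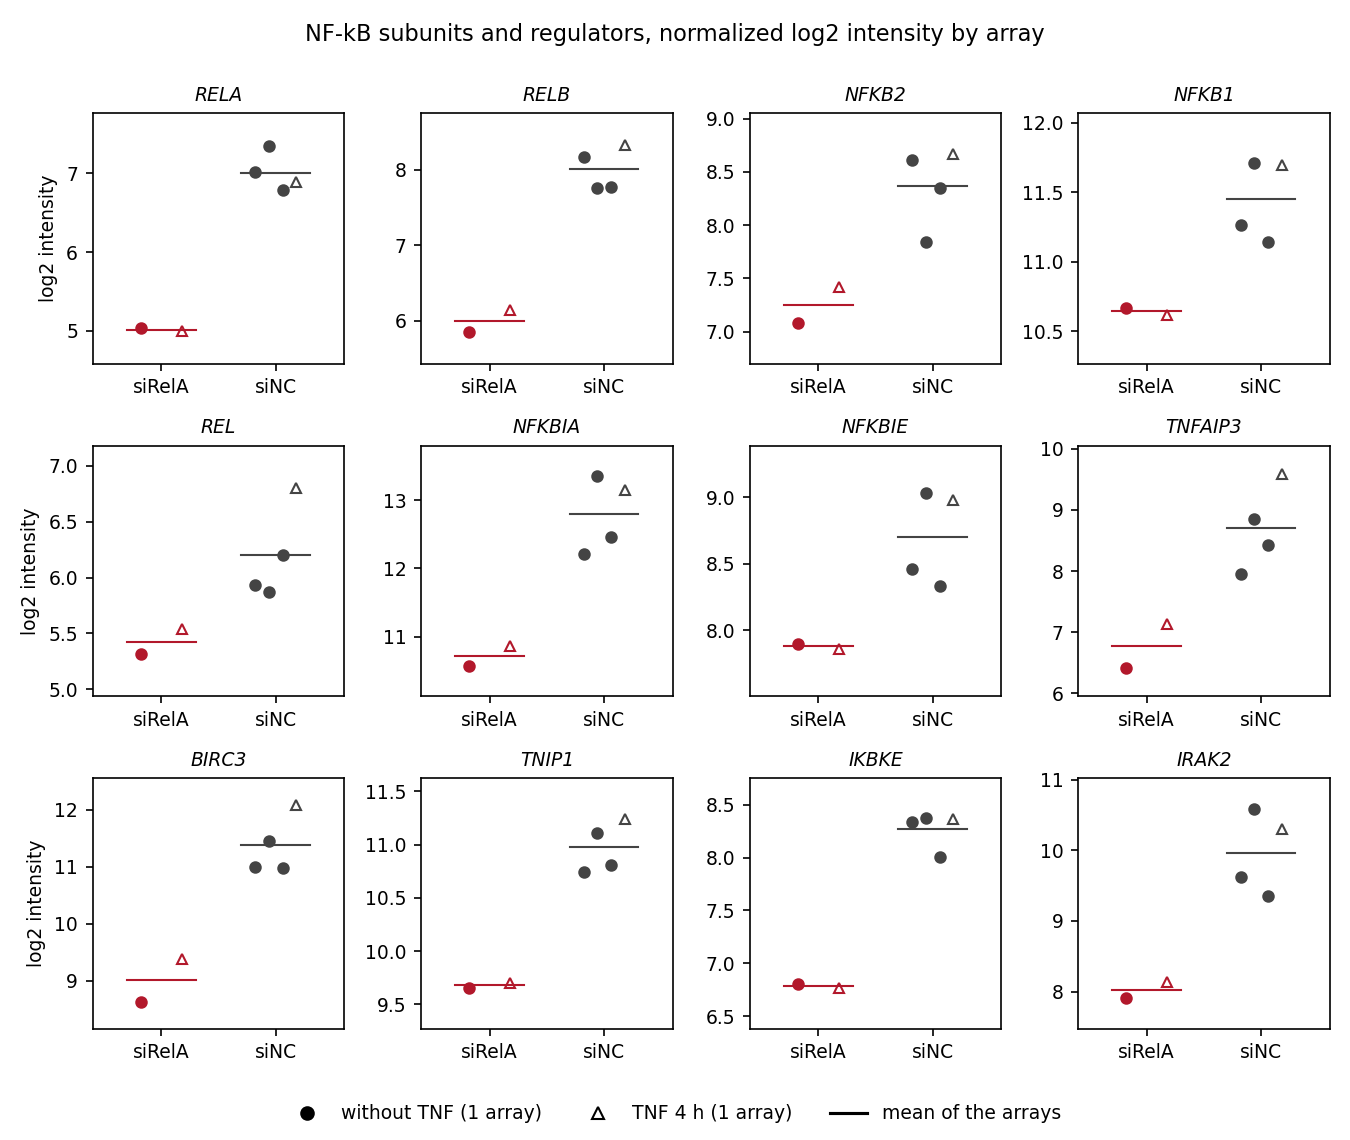
Normalized log2 intensity of 12 NF-kB subunit and regulator genes on each array (points, filled without TNF and open with TNF), with the mean of each group's arrays as a line, siRelA on the left and siNC on the right. In every panel both siRelA arrays lie below all 4 siNC arrays, and NFKB1, REL and NFKBIE did not pass the test.

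Several lower genes carry kappaB motifs just upstream of their start, and 6 such promoters are shown because their genes had the lowest log2 changes among those with a promoter entry and a match. Sequences run 5′ to 3′ on the gene's strand from 250 bases before to 50 after the annotated start, as given by RefSeq for GRCh38.p14, with matched motifs in capitals.
CXCL8, chr4:73740319-73740618 on the plus strand: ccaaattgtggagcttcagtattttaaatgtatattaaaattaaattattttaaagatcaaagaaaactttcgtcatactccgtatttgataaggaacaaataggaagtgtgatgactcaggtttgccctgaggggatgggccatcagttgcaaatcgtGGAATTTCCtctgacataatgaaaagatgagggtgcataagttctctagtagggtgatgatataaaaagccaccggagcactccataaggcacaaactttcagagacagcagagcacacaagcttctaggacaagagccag
LCN2, chr9:128149203-128149502 on the plus strand: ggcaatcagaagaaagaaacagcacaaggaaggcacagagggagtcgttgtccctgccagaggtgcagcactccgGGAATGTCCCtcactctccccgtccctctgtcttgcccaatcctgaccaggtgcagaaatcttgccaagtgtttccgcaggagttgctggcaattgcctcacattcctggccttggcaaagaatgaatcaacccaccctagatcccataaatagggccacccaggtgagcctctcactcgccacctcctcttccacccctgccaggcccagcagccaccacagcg
CXCL10, chr4:76023448-76023747 on the minus strand: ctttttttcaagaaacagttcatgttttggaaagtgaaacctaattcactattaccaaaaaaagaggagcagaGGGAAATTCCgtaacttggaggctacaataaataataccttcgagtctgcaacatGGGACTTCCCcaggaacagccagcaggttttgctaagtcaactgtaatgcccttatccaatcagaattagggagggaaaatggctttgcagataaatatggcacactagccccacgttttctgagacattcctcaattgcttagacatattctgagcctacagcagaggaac
CCL20, chr2:227813592-227813891 on the plus strand: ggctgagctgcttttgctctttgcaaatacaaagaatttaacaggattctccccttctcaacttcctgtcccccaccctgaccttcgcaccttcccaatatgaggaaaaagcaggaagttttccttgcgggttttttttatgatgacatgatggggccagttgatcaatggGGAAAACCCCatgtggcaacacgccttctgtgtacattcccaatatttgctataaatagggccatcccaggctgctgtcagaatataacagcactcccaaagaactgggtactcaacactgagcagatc
ICAM1, chr19:10270870-10271169 on the plus strand: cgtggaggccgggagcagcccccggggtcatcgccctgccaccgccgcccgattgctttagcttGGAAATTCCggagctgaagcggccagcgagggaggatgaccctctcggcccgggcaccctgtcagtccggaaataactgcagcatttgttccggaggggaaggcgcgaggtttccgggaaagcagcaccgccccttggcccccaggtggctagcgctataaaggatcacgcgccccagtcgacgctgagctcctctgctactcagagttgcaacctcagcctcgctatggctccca
CXCL11, chr4:76036021-76036320 on the minus strand: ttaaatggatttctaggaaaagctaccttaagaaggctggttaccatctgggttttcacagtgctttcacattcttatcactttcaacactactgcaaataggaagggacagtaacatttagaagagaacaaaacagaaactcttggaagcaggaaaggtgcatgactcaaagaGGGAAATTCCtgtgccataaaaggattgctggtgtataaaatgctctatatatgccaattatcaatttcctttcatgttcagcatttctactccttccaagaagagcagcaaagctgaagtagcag

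Both strands were searched for GGAANTTCC, for the strict kappaB motif (GGGA, any base, then TTTCC) and for the general kappaB consensus, which the strict motif always fulfils and which often overlaps GGAANTTCC. Positions are those of the match's first base relative to the start. CXCL8 matched as GGAATTTCC at -91, and CXCL10 held one match at -177 and another at -122. Further matches stood at -73 for IL6 (GGGATTTTCC), -79 for CXCL1 (GGGAATTTCC), -81 for NFKBIA (GGGAATTTCC on the other strand) and -67 for TNFAIP3 (GGGACTTTCC on the other strand). Of the 164 lower genes 130 matched a promoter entry, and 12 of these held the strict motif (9.231%), against 0 of the 56 higher genes with an entry and 0.579% of all 27305 promoters. GGAANTTCC stood in 10 of the 130 (7.692%), 1 of the 56 (1.786%) and 0.967% of all promoters. At least 1 of the 3 motifs was found for 35 of the 130 lower genes (26.923%), 5 of the 56 higher genes (8.929%), 13.116% of the tested genes with an entry and 11.317% of all promoters. A match in these letters is a description, and these windows do not cover enhancers.

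Of 23 TNF superfamily ligands and receptors 4 fell and none rose (median log2 change -0.26, or -0.23 with undetected members at their bound, and 7 lower in the second set). TNF, the ligand that activates the pathway, read 4.38 and 4.39 with siRelA, where it was not detected, and 5.67, 6.30, 5.81 and 7.33 with siNC, at least 2.12-fold lower (adjusted p = 0.00644). LTB, which with lymphotoxin alpha activates the alternative pathway, read 4.82 and 4.93 with siRelA, also not detected, and 7.16, 6.36, 6.95 and 8.18 with siNC, at least 3.92-fold lower (adjusted p = 0.00164). On the siNC arrays both genes were highest with TNF, and on the siRelA arrays neither was detected in either state. The receptor TNFRSF9 (4-1BB) was at least 2.03-fold lower (adjusted p = 0.0227) and TNFRSF14 (HVEM) fell 2.38-fold (log2 change -1.25 ± 0.22, adjusted p = 0.0179). TNFRSF1A, the main receptor of TNFalpha, read 9.77 and 9.56 with siRelA and 9.88, 8.92, 9.79 and 9.69 with siNC, so the values overlapped (log2 change 0.11 ± 0.30, adjusted p = 0.942). TNFRSF14 lost its call without siNC TNF or either siRelA array (adjusted p up to 0.325), TNFRSF9 also without either siRelB array (up to 0.375), and TNF without siRelA TNF (0.126).

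The list with the lowest median joined chemokines that attract neutrophils with CCL20, which was 1 of its 3 called members. Of 7 measured, 3 fell and none rose, with a median log2 change of -2.58 (-2.18 in the second set, where 4 were called lower). CXCL8 read 10.14 and 11.68 with siRelA and 13.54, 14.92, 13.86 and 14.69 with siNC (log2 change -3.71 ± 0.44, adjusted p = 0.00206). CXCL1 read 10.93 and 11.79 with siRelA and 13.38, 14.44, 13.45 and 13.64 with siNC (log2 change -2.58 ± 0.47, adjusted p = 0.0188). CCL20, which attracts CCR6-bearing lymphocytes and dendritic cells, read 5.31 and 5.10 with siRelA and 7.15, 8.61, 7.20 and 8.98 with siNC (log2 change -3.20 ± 0.66, adjusted p = 0.0364). CXCL8 and CXCL1 remained among the brighter genes with siRelA, whereas CCL20 stood near its undetected level. CXCL2 read 6.70 and 7.48 with siRelA and 8.93, 11.40, 8.89 and 10.06 with siNC, and despite non-overlapping values it did not pass (log2 change -3.08 ± 0.74, adjusted p = 0.0707), with siNC replicate 2 highest. CXCL3, not detected with siRelA, read 4.80 and 4.93 with siRelA and 5.33, 5.66, 5.05 and 5.61 with siNC (adjusted p = 0.282). CXCL6 (log2 change 0.22 ± 0.16) and PPBP (0.18 ± 0.31) did not pass either. CXCL1, CXCL2 and CXCL3 are alike in sequence, and probes may read more than 1 of them. CCL20 lost its call in 9 of the 12 fits that left out an array, all but siNC replicate 2, siEZH2 replicate 2 and siEZH2 TNF (adjusted p up to 0.489), CXCL8 without 1 siRelA array (up to 0.0719) and CXCL1 without either (up to 0.31).

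Among the 12 other chemokines 3 fell (median log2 change -0.40, 6 lower in the second set). CXCL10, an interferon-inducible attractant of T cells, read 4.95 and 4.85 with siRelA, not detected, and 7.80, 8.46, 7.79 and 8.70 with siNC, at least 7.99-fold lower (adjusted p = 0.000579). CXCL11, which acts on the same receptor, read 4.81 and 4.58 with siRelA, not detected, and 7.19, 7.08, 7.63 and 8.10 with siNC, at least 4.96-fold lower (adjusted p = 0.000579). Both lay below every siNC array, and both kept their call whichever array was left out. CX3CL1, a membrane-bound chemokine, read 4.40 and 4.41 with siRelA, not detected, and 5.73, 5.46, 6.05 and 7.09 with siNC, at least 1.86-fold lower (adjusted p = 0.0183), and lost its call without siRelA CTRL or siRelA TNF (up to 0.286).

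Both agonists of the interleukin-1 receptor fell. IL1B read 6.22 and 6.55 with siRelA and 9.59, 10.39, 9.57 and 10.66 with siNC (log2 change -3.97 ± 0.54, adjusted p = 0.00455). IL1A, detected on 1 of the 2 siRelA arrays, read 5.14 and 5.91 with siRelA and 8.30, 8.85, 8.49 and 9.57 with siNC (log2 change -3.61 ± 0.41, adjusted p = 0.00174). Both stood more than 2 log2 units below the lowest siNC array on each siRelA array. The other 5 measured members of the family did not pass and the list median was -0.04 (0.04 in the second set, with 3 lower). The receptor gene IL1R1 had a log2 change of -0.04 ± 0.23. IL1B and IL1A lost their call without 1 siRelA array, with adjusted p of 0.106 and 0.0506.

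Of 23 genes of the IL6 family, colony-stimulating factors and related cytokines, 7 fell and none rose (median log2 change -0.44, or -0.37 with undetected members at their bound, and 12 lower in the second set). CSF2 (GM-CSF), a growth factor for myeloid cells, read 9.63 and 10.97 with siRelA and 13.12, 12.75, 12.999 and 14.10 with siNC (log2 change -3.35 ± 0.50, adjusted p = 0.00745). CSF3 (G-CSF), which drives neutrophil production, read 4.55 and 4.76 with siRelA, not detected, and 7.66, 6.59, 7.66 and 7.77 with siNC, at least 4.69-fold lower (adjusted p = 0.000794). CSF1, the macrophage growth factor, was at least 3.35-fold lower (adjusted p = 0.0146). The 3 colony-stimulating factors thus all lay below every siNC array with either siRelA array. IL6 read 8.80 and 9.20 with siRelA and 10.82, 12.37, 10.82 and 11.84 with siNC (log2 change -2.74 ± 0.48, adjusted p = 0.0161). IL23A, the p19 subunit of interleukin-23, fell 3.74-fold (log2 change -1.90 ± 0.21, adjusted p = 0.0015), the cytokine IL32 was at least 1.84-fold lower (adjusted p = 0.00124) and SOCS1, a feedback inhibitor of cytokine signalling, at least 1.76-fold lower (adjusted p = 0.00737). The shared receptor subunit gene IL6ST varied between 4.89 and 9.79 over the siNC arrays and did not pass (log2 change -0.66 ± 1.35, adjusted p = 0.919). CSF1 lost its call without siNC TNF or either siRelA array (adjusted p up to 0.235), and CSF2, IL6 and SOCS1 without siRelA arrays alone (up to 0.145, 0.263 and 0.164).

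Of 13 prostaglandin and leukotriene genes 4 fell and none rose. PTGS2, the inducible cyclooxygenase, read 5.01 and 5.23 with siRelA and 8.92, 12.07, 9.21 and 9.92 with siNC (log2 change -4.98 ± 0.76, adjusted p = 0.00767), a wide separation in which siNC replicate 2 was highest and siRelA stood near or under detection. PLA2G4A, the phospholipase that frees arachidonic acid, read 5.99 and 5.75 with siRelA and 7.70, 8.85, 7.83 and 7.88 with siNC (log2 change -2.16 ± 0.37, adjusted p = 0.0159). PTGES, the inducible prostaglandin E synthase, read 9.61 and 9.61 with siRelA and 11.91, 10.52, 11.81 and 11.74 with siNC (log2 change -1.90 ± 0.34, adjusted p = 0.0188). ALOX5AP, which presents arachidonic acid to 5-lipoxygenase, was detected on 1 of the 2 siRelA arrays. It read 5.24 and 4.98 with siRelA and 7.76, 8.36, 7.64 and 7.45 with siNC (log2 change -2.63 ± 0.23, adjusted p = 0.000579). The 4 genes act at successive or parallel steps from membrane lipid to prostaglandin E and leukotrienes, the list median was -0.10 (0.06 in the second set), and within the second set 4 were lower and 2 higher. The constitutive cyclooxygenase gene PTGS1 read 5.38 and 5.19 with siRelA and 4.89, 4.61, 4.79 and 4.67 with siNC, where it was not detected, and did not pass (adjusted p = 0.143). PLA2G4A and PTGES lost their call without siNC TNF or either siRelA array (adjusted p up to 0.238 and 0.281), PTGS2 without a siRelA array (up to 0.164), and ALOX5AP kept it whichever array was left out. With the authors' processed values none of the 4 passed (ALOX5AP, adjusted p = 0.072). With the set as a term in those values all 4 passed.

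Complement, acute phase and defence genes included some of the deepest falls, with 4 of 26 lower, none higher and a median log2 change of -0.27 (11 lower and 2 higher in the second set). VNN1, a pantetheinase, read 4.47 and 4.51 with siRelA, not detected, and 8.95, 9.21, 8.89 and 9.14 with siNC, at least 14.5-fold lower (adjusted p = 4.81e-07). C3, the central complement component, read 4.53 and 4.56 with siRelA, not detected, and 9.25, 7.37, 9.23 and 9.44 with siNC, at least 12.4-fold lower (adjusted p = 0.00644). LCN2, which binds iron-carrying bacterial siderophores, read 5.82 and 5.89 with siRelA and 9.54, 8.52, 9.34 and 9.45 with siNC (log2 change -3.44 ± 0.44, adjusted p = 0.00314). PI3 (elafin), an inhibitor of neutrophil elastase, was at least 3.83-fold lower (adjusted p = 0.00767). On siNC replicate 2 both C3 and LCN2 were lower than on the other siNC arrays, and all siNC values still lay above siRelA. The calls of C3, LCN2 and PI3 were lost without siRelA arrays. VNN1 kept its call whichever array was left out but not with the authors' processed values (adjusted p = 0.16). With the set as a term in those values VNN1 passed.

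ICAM1, the leukocyte adhesion receptor, read 4.77 and 4.86 with siRelA, not detected, and 7.24, 8.58, 7.31 and 8.23 with siNC, at least 6.27-fold lower (adjusted p = 0.00314), while L1CAM, a neural adhesion molecule, rose 2-fold (log2 change 0.999 ± 0.21, adjusted p = 0.0406), and the other 12 of 14 adhesion receptors did not pass (median -0.06, or -0.05 with undetected members at their bound). MMP1, interstitial collagenase, read 7.42 and 7.45 with siRelA and 10.80, 12.26, 10.83 and 10.75 with siNC (log2 change -3.68 ± 0.39, adjusted p = 0.00149) and was the member called among 14 metalloproteinases and their inhibitors (median 0.10, or 0.04 with bounds). MMP3, another metalloproteinase of the same gene cluster, read 4.60 and 4.85 with siRelA and 4.73, 5.27, 4.66 and 4.78 with siNC, was detected on 1 of these arrays, and did not pass. Of 15 plasminogen and clotting genes 3 fell (median -0.39, or -0.35 with bounds). PLAT, tissue plasminogen activator, read 10.16 and 10.53 with siRelA and 11.53, 12.15, 11.31 and 11.80 with siNC (log2 change -1.39 ± 0.22, adjusted p = 0.00972), the urokinase receptor PLAUR fell 1.69-fold (adjusted p = 0.0364) and the serpin SERPINB8 1.87-fold (adjusted p = 0.045). Of 21 collagen and matrix genes 2 fell: COL6A3 was at least 1.92-fold lower (adjusted p = 0.0191) and COL7A1, the collagen of anchoring fibrils, fell 2.16-fold (adjusted p = 0.0242). In the second set 5 adhesion receptors were lower and 1 higher, 2 metalloproteinase genes lower and 2 higher, 7 clotting genes lower and 2 higher, and 4 matrix genes lower and 2 higher. L1CAM, PLAUR, SERPINB8 and COL7A1 lost their calls in 9, 10, 9 and 8 of the 12 fits without 1 array (adjusted p up to 0.589, 0.684, 0.607 and 0.375). PLAT was lost without siNC TNF or a siRelA array (up to 0.287), COL6A3 also without siNC replicate 3 (up to 0.326), and ICAM1 without a siRelA array (up to 0.0842). With the replicate number as a random block L1CAM, PLAUR and SERPINB8 did not pass (adjusted p = 0.091, 0.092 and 0.070).

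Intracellular and tissue genes known to be induced by NF-kB had 6 of 26 lower, none higher, and a median log2 change of -0.72 (15 lower in the second set). KYNU, a tryptophan-catabolizing enzyme, read 10.11 and 10.12 with siRelA and 11.85, 11.92, 11.71 and 12.06 with siNC (log2 change -1.81 ± 0.13, adjusted p = 0.00042). The siNC arrays were close together, and the gene kept its call whichever array was left out, as did CD82, a tetraspanin (log2 change -1.18 ± 0.13, adjusted p = 0.00162). TNFAIP2 (log2 change -1.56 ± 0.32, adjusted p = 0.0357), the maturation marker CD83 (log2 change -1.22 ± 0.17, adjusted p = 0.00624) and the kinase MAP3K8, also called TPL2 (log2 change -1.45 ± 0.23, adjusted p = 0.0101), fell as well. TNFAIP2 was lost in 10 of the 12 fits without 1 array (adjusted p up to 0.495), MAP3K8 without siNC TNF or siRelA TNF (up to 0.196) and CD83 without a siRelA array (up to 0.129). Of 25 antioxidant genes 1 fell, the iron store subunit FTH1 (log2 change -1.19 ± 0.25, adjusted p = 0.0413), whose pseudogenes a probe may also read and which was lost in 9 fits without 1 array (up to 0.521). FTL, the light ferritin chain, had a log2 change of 0.01 ± 0.20, and the antioxidant list's median was -0.16. None of the 17 genes of the BCL2 family and caspase inhibitors passed, against 5 lower and 2 higher in the second set, and their median was -0.19, which became 0.00 with the 1 undetected member at its bound.

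**Figure D3:**
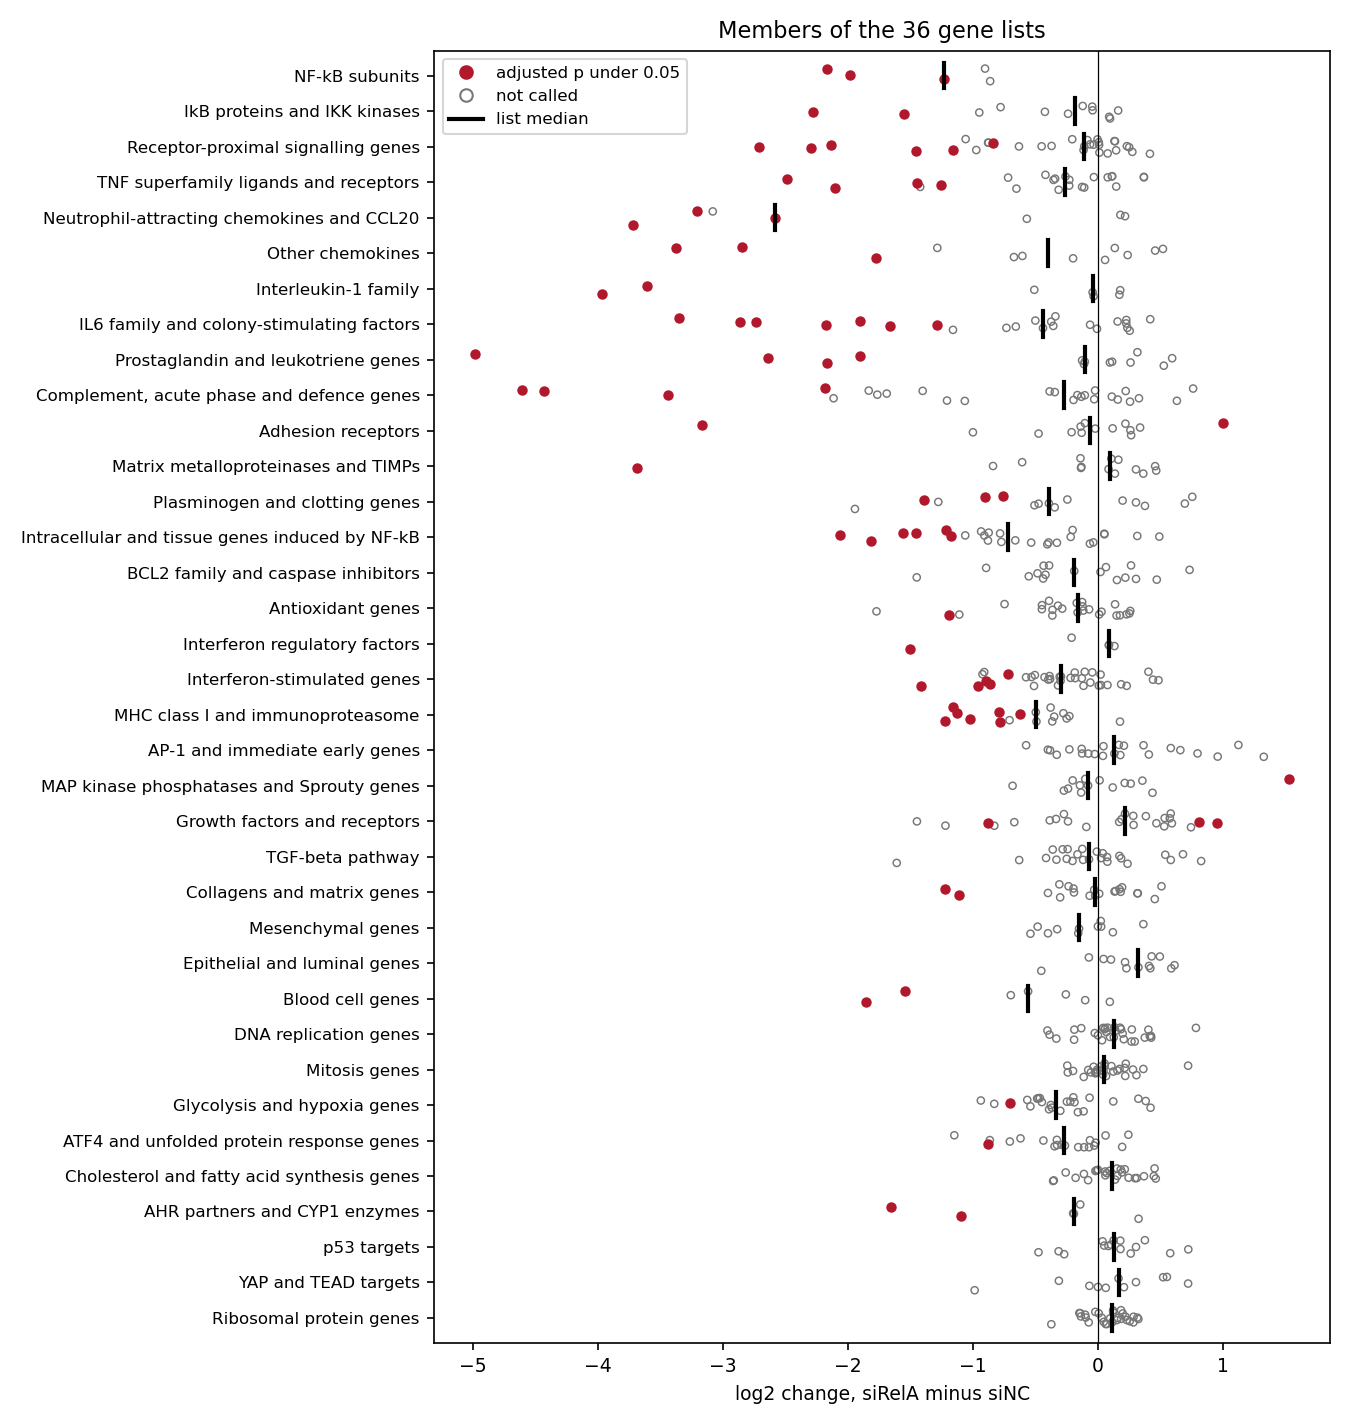
Log2 change with siRelA relative to siNC of every measured member of 36 gene lists, with called members filled, other members open and the list median as a bar. Called members below -2 stand in the cytokine, chemokine, prostaglandin, complement, adhesion, metalloproteinase and NF-kB lists, whereas the replication, mitosis and ribosomal protein lists have no called member and medians of 0.13, 0.04 and 0.11.

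Of 5 interferon regulatory factors 1 fell (median 0.09, and -0.02 in the second set). IRF1, a transcription factor induced by both interferon and NF-kB, read 9.42 and 8.40 with siRelA and 10.11, 10.37, 10.43 and 10.71 with siNC (log2 change -1.50 ± 0.30, adjusted p = 0.0313), and it was lost without siEZH2 replicate 1, siNC replicate 3, siNC TNF, siEZH2 TNF, siRelA TNF or either siRelB array (adjusted p up to 0.382). The other interferon regulatory factors measured did not pass: IRF2 0.09 ± 0.32, IRF3 0.13 ± 0.28, IRF7 -0.21 ± 0.13 and IRF9 0.09 ± 0.14. Of 36 interferon-stimulated genes 5 fell and none rose (median -0.30, or -0.26 with bounds), and in the second set 14 were lower and 1 higher. IFIH1, a sensor of double-stranded RNA, read 5.78 and 5.93 with siRelA and 7.01, 7.42, 7.12 and 7.40 with siNC (log2 change -1.42 ± 0.22, adjusted p = 0.00922). OAS2 and OAS3, which activate RNase L, fell 1.82-fold and 1.94-fold (adjusted p = 0.0166 and 0.016), the guanylate-binding protein GBP2 1.86-fold (adjusted p = 0.0451), and BST2 (tetherin), which holds budding virus particles, was at least 1.35-fold lower (adjusted p = 0.0365). GBP2 and BST2 lost their call in 10 and 8 of the 12 fits without 1 array (adjusted p up to 0.546 and 0.422), and IFIH1, OAS2 and OAS3 without siNC TNF or a siRelA array (up to 0.208, 0.258 and 0.274). With the replicate number as a random block OAS3 and BST2 did not pass (adjusted p = 0.053 and 0.054).

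Genes of MHC class I presentation, which displays peptides to CD8 T cells, fell in 7 of 17 cases and rose in none. Of the 17 log2 changes 16 were negative, and the median was -0.50, against 0.03 over all genes. In the second set 13 were called lower. HLA-B, a class I heavy chain, read 10.55 and 10.76 with siRelA and 11.92, 11.65, 11.69 and 11.81 with siNC (log2 change -1.12 ± 0.17, adjusted p = 0.00737). TAP1, which carries peptides into the endoplasmic reticulum, read 9.55 and 9.59 with siRelA and 10.74, 10.95, 10.66 and 10.81 with siNC (log2 change -1.22 ± 0.18, adjusted p = 0.00731). TAPBP (tapasin), which loads them, read 9.89 and 9.99 with siRelA and 11.16, 10.90, 10.94 and 10.88 with siNC (log2 change -1.02 ± 0.16, adjusted p = 0.00985). For these 3 genes each siRelA value lay below all siNC values by a margin wider than the siNC range. The other 2 TAPBP probes gave log2 changes of -0.45 and -0.31, and the mean of its probes did not pass (adjusted p = 0.091). The immunoproteasome subunit PSMB9 was at least 2.04-fold lower (adjusted p = 0.00602) and PSMB10 fell 1.72-fold (adjusted p = 0.0148). ERAP2, a peptide-trimming protease, fell 1.73-fold (adjusted p = 0.0188). B2M, the light chain, had a log2 change of -0.28 ± 0.14 and did not pass. Class I heavy chains are alike in sequence, so a probe may read more than 1. PSMB10 and ERAP2 lost their call without siNC TNF or a siRelA array (adjusted p up to 0.231 and 0.374), and HLA-B, TAP1, TAPBP and PSMB9 without a siRelA array (up to 0.22, 0.164, 0.287 and 0.139).

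MHC class II genes were singled out after their values were seen, and 1 of them, CD74, also stands in the blood cell list. Of 14 measured genes of class II molecules, their loading and their control, 6 fell, against 1.34% of all genes, and none rose (median log2 change -0.54). Changes above 0 were found for HLA-DRB1, not detected on these arrays, and for the regulators RFXAP and RFXANK, and none of these 3 passed. HLA-DRA, the alpha chain of HLA-DR, read 8.66 and 8.63 with siRelA and 10.95, 11.43, 10.89 and 10.81 with siNC (log2 change -2.29 ± 0.33, adjusted p = 0.00608). HLA-DPA1 read 7.74 and 7.78 with siRelA and 10.04, 9.07, 9.62 and 9.70 with siNC (log2 change -1.85 ± 0.24, adjusted p = 0.00347). CD74, the chaperone of class II molecules, read 9.77 and 10.03 with siRelA and 11.82, 10.80, 11.51 and 11.55 with siNC (log2 change -1.54 ± 0.24, adjusted p = 0.00922). HLA-DMB, HLA-DRB4 (whose probe may read other DRB genes) and CTSS, the protease cathepsin S that cuts CD74, were the other 3. CTSS was not detected with siRelA and was at least 3.92-fold lower (adjusted p = 0.000679). CIITA, the master activator of class II genes, read 6.05 and 6.19 with siRelA and 6.42, 6.15, 6.37 and 6.73 with siNC, overlapping, and did not pass (log2 change -0.32 ± 0.19, adjusted p = 0.588). CD74 lost its call without siNC TNF or a siRelA array (adjusted p up to 0.259). HLA-DRA, HLA-DPA1, HLA-DMB and HLA-DRB4 lost theirs without either siRelA array (up to 0.18), and CTSS kept it whichever array was left out. With the authors' processed values none of these 6 genes passed (adjusted p from 0.060 for CD74 to 0.35 for HLA-DRA). With the set as a term in those values CD74 and CTSS passed, and no value is given here for the others.

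Blood cell genes, kept as markers of another cell type, had 2 of 7 members lower, LCP1, an actin-bundling protein also made by many cancer lines (log2 change -1.85 ± 0.21, adjusted p = 0.00175), and CD74. The summed level of the 7 was 12.41 on both siRelA arrays and 12.33 to 13.18 on the siNC arrays on the log2 scale, the list median was -0.56 (-0.45 with bounds), and CD3E was not detected on any array, PTPRC on 7 and CD68 on all 12. Whether such cells had a part in any result was not tested. Epithelial and luminal genes, which could mark another breast line, had no called member among 13 (median 0.32, with a summed level of 13.37 on both siRelA arrays and 12.86 to 13.11 on the siNC arrays), and mesenchymal genes had none among 11 (median -0.15). In the second set 2 epithelial genes were lower and 4 higher, and 2 mesenchymal genes lower and 1 higher. The part of these values in other results was not tested. LCP1 lost its call without 1 siRelA array (adjusted p = 0.0779).

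Growth control genes gave few calls, and these included rises. DUSP1, a phosphatase that switches off MAP kinases, read 12.11 and 12.37 with siRelA and 10.50, 10.87, 10.68 and 10.64 with siNC (log2 change 1.53 ± 0.23, adjusted p = 0.00737), and was the member called among 15 MAP kinase phosphatase and Sprouty genes (median -0.08). No AP-1 or immediate early gene passed among 23 (median 0.13), against 1 lower and 5 higher in the second set. Of 25 growth factor and receptor genes TGFA, an EGFR ligand, fell 1.84-fold (log2 change -0.88 ± 0.12, adjusted p = 0.00481), IGFBP3, a carrier of insulin-like growth factors, rose 1.94-fold (log2 change 0.95 ± 0.17, adjusted p = 0.0191) and ERBB3, a receptor partner of ERBB2, rose 1.75-fold (log2 change 0.81 ± 0.17, adjusted p = 0.0359). Other ERBB3 probes gave -0.16 and 0.33, so its probes disagreed. The list median was 0.22, and 5 were lower and 6 higher in the second set. None of the 31 replication, 29 mitosis, 25 TGF-beta, 15 p53, 11 YAP or 29 ribosomal protein genes passed. In the second set 1 replication gene was lower and 4 higher, 4 TGF-beta genes lower and 1 higher, 1 p53 target lower and 2 higher, and 3 YAP targets higher. Of 26 cholesterol and fatty acid genes none passed (median 0.12), and 10 were called higher in the second set (median 0.29). ERBB3 lost its call in 8 of the 12 fits without 1 array (adjusted p up to 0.768), IGFBP3 without siNC replicate 3, siNC TNF or a siRelA array (up to 0.308), and DUSP1 and TGFA without a siRelA array (up to 0.141 and 0.114).

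Metabolic and stress lists each had 1 or 2 lower members. PFKFB4, a regulator of glycolysis, fell 1.62-fold (log2 change -0.70 ± 0.14, adjusted p = 0.0364) among 24 glycolysis and hypoxia genes (median -0.33, or -0.27 with bounds). DDIT4, an mTORC1 inhibitor, fell 1.84-fold (log2 change -0.88 ± 0.15, adjusted p = 0.014) among 20 ATF4 and unfolded protein response genes (median -0.27). CYP1B1, a xenobiotic- and estrogen-oxidizing enzyme, read 7.79 and 7.94 with siRelA and 9.32, 9.63, 9.58 and 9.41 with siNC (log2 change -1.66 ± 0.17, adjusted p = 0.0013), and ARNT2, a dimer partner of the aryl hydrocarbon receptor, fell 2.13-fold (log2 change -1.09 ± 0.14, adjusted p = 0.00309). AHR itself had a log2 change of -0.19 ± 0.14, ARNT of -0.20 ± 0.17, TIPARP of -0.14 ± 0.16 and CYP1A1 of 0.33 ± 0.25, and none of these 4 passed. In the second set 10 glycolysis and hypoxia genes were lower and 1 higher, and 4 stress genes lower and 1 higher. PFKFB4 lost its call in 10 of the 12 fits without 1 array (adjusted p up to 0.484), DDIT4 without siNC TNF or a siRelA array (up to 0.224), and ARNT2 without 1 siRelA array (0.0885).

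Among the deepest falls outside these lists were ADAMTS9, a secreted metalloproteinase that cuts proteoglycans, at 5.40 and 5.41 with siRelA and 8.05, 8.54, 7.79 and 8.32 with siNC (log2 change -2.81 ± 0.23, adjusted p = 0.000579), and SCG5, a neuroendocrine chaperone, at 5.61 and 5.66 with siRelA and 8.47, 9.05, 8.26 and 8.12 with siNC (log2 change -2.80 ± 0.22, adjusted p = 0.000547). In the authors' processed values the log2 change of SCG5 was -0.50 (adjusted p = 0.95). With the set as a term in those values SCG5 passed. INAVA, an adaptor in innate signalling, fell 5.61-fold (log2 change -2.49 ± 0.43, adjusted p = 0.0161), and COXFA4L3, a mitochondrial protein gene named C15ORF48 in the file, fell 4.98-fold (log2 change -2.32 ± 0.35, adjusted p = 0.00745). ADAMTS9, CXCL10, DOC1 and KYNU were the 4 genes called under each of the alternative settings run. INAVA lost its call without siNC TNF or siRelA TNF (adjusted p up to 0.257), and COXFA4L3 without a siRelA array (up to 0.157).

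Of the 74 higher genes 4 belonged to a list. KRTAP2-4, a hair keratin-associated protein gene with near-identical copies, read 9.04 and 9.52 with siRelA and 6.62, 5.61, 6.39 and 6.25 with siNC (log2 change 2.99 ± 0.47, adjusted p = 0.00945). The probe called DOC1 in the files, a symbol used for more than 1 gene, read 8.73 and 8.74 with siRelA and 6.38, 6.19, 6.64 and 6.50 with siNC (log2 change 2.30 ± 0.20, adjusted p = 0.000579). CPA4, a carboxypeptidase, read 9.62 and 9.63 with siRelA and 7.62, 7.26, 7.46 and 7.55 with siNC (log2 change 2.13 ± 0.24, adjusted p = 0.00164). In these 3 genes every siRelA value lay about 2 log2 units or more above the highest siNC value. CXCR4, the receptor of the chemokine CXCL12, read 11.05 and 11.14 with siRelA and 9.72, 9.59, 9.64 and 9.68 with siNC (log2 change 1.43 ± 0.20, adjusted p = 0.0055). The LIM protein gene CRIP2 (2.11 ± 0.38), the serine incorporator gene SERINC2 (2.13 ± 0.28), the cell cycle regulator RGCC (2.01 ± 0.24), the membrane repair gene DYSF (1.55 ± 0.17) and the secreted protease HTRA1 (1.60 ± 0.23) rose too. Also among the 25 highest were SPINK4, CLIC3, STXBP6, MAP3K7CL, ECM1, VSTM1, AP1M2, ANGPTL2, PDE1C, IDNK, MAMDC2, PLAAT3, TMCO1, CAVIN2 and NANOS1, with log2 changes from 1.19 to 1.71.

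Most calls among these rises depended on single arrays. DOC1 and DYSF kept theirs whichever array was left out. With the replicate number as a random block MAP3K7CL, VSTM1 and ANGPTL2 did not pass (adjusted p = 0.0503, 0.0635 and 0.0635). CPA4, SERINC2, RGCC, SPINK4, STXBP6, HTRA1, CXCR4, AP1M2, ANGPTL2, PDE1C, TMCO1 and CAVIN2 lost theirs without 1 or both siRelA arrays (adjusted p up to 0.473). KRTAP2-4, CRIP2, CLIC3, ECM1, IDNK and NANOS1 were lost also without siNC TNF (up to 0.473). MAP3K7CL, VSTM1, MAMDC2 and PLAAT3 were lost in 9, 6, 5 and 7 of the 12 fits without 1 array (up to 0.56).

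The TNF state was the other axis of the design, and no gene passed the siRelA by TNF interaction (limma, 0 of 12275, 0%, with 17 at an unadjusted p under 0.05). On simulated data this test recovered 0% of changes of 1 or 2 log2 units (3 of its 4 groups hold 1 array), so 0 calls say nothing about whether responses differed. Single-array values are therefore given without a test. IRF1 differed by -0.88 without TNFalpha (siRelA minus the siNC mean) and by -2.31 with it, and CCL20, detected on 1 of the 2 siRelA arrays, by -2.34 and -3.87. Larger differences without TNFalpha than with it were seen for CXCL8 (-3.97 and -3.01) and CXCL1 (-2.82 and -1.85), also against siNC replicate 3 alone (-3.72 for CXCL8 and -2.52 for CXCL1 without TNFalpha).

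Put as responses, the difference between arrays with and without TNFalpha was -0.21 in siRelA cells and 1.33 in siNC cells for CCL20. CCL20 was detected on 1 of the 2 siRelA arrays, so its siRelA value is a difference near the undetected level. For IRF1 the difference was -1.02 in siRelA cells and 0.41 in siNC cells. In siNC cells it was 1.35 for LTB, 1.40 for the TNF gene and 1.35 for CX3CL1, which were not detected with siRelA in either state, so no siRelA response is given. For TNFAIP3 it was 0.73 in siRelA cells and 1.18 in siNC cells, for BIRC3 0.75 in siRelA cells and 0.94 in siNC cells, for CSF2 1.35 in siRelA cells and 1.14 in siNC cells, and for CXCL8 1.53 in siRelA cells and 0.58 in siNC cells, where the siNC array with TNFalpha is set against the mean of 3 arrays. On the siNC array with TNFalpha TNFAIP3, BIRC3 and CSF2 were above all 3 siNC arrays without it, and CXCL8 was below replicate 2. The list medians of the response were 0.23 with siRelA and 0.40 with siNC for the NF-kB subunits, 0.02 and 0.22 for receptor-proximal genes, 0.05 and 0.25 for intracellular NF-kB-induced genes, and -0.01 and 0.01 for all genes. For CXCL1 the response was 0.86 with siRelA and -0.11 with siNC. Each response rests on 1 array per state, or on 3 for siNC without TNFalpha, and has no error. In a later fit the common response of siNC, siEZH2 and siRelB was 1.47 for CXCL8 and 0.86 for CXCL1. The siRelA response departed from it by 0.06 ± 0.84 for CXCL8 and -0.005 ± 0.89 for CXCL1. Departures were -0.36 for CSF2, -0.76 for BIRC3, -0.93 for TNFAIP3, -1.31 for IRF1 and -2.40 for CCL20. A comparison added after the data were seen, of the siRelA response with the common response of the other 3 siRNAs, gave 0 calls (31 at an unadjusted p under 0.05, and 0 with 900 in the second set).

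**Figure D4:**
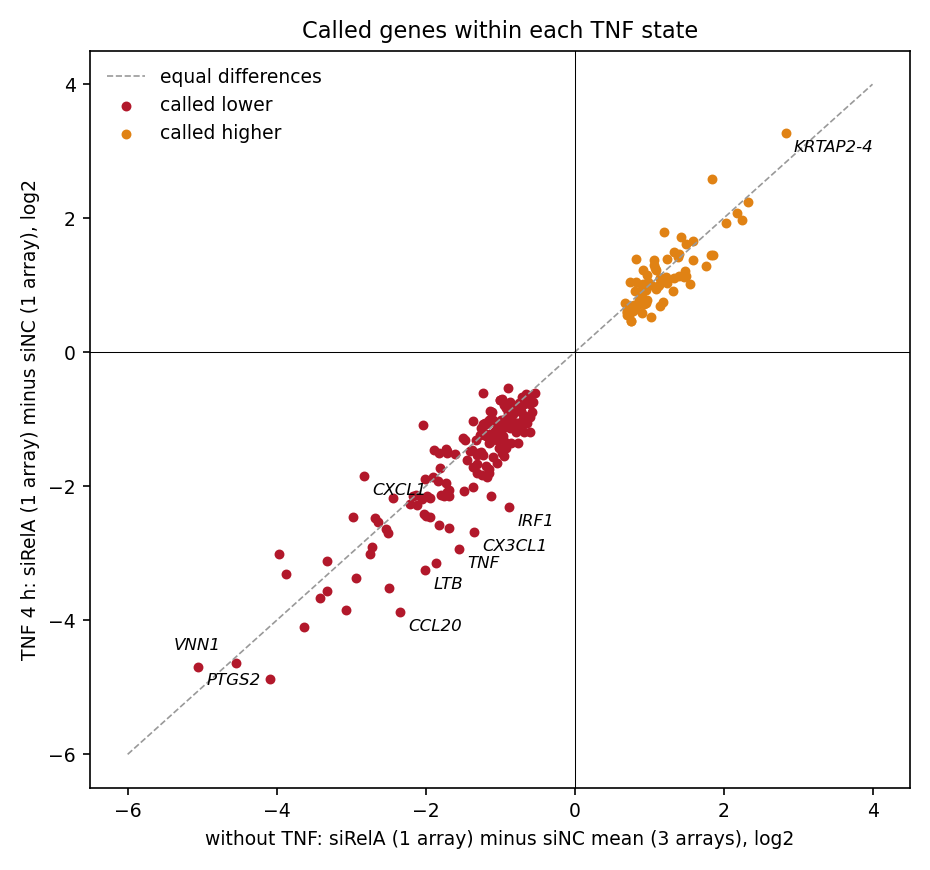
Difference in log2 intensity between siRelA and siNC with TNFalpha (vertical axis, 1 array each) against the difference without it (horizontal axis, 1 siRelA array against the mean of 3 siNC arrays) for the 238 called genes. All points lie at the lower left or upper right of the zero lines, which largely follows from picking the genes by a test on these arrays. CCL20 and IRF1 lie below the line of equal differences. TNF, LTB and CX3CL1 lie below it too, but were not detected with siRelA, so their differences are bounds only.

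siRelA was also set against siRelB directly, with 2 arrays against 2, to see which changes differed between the RELA and RELB knockdowns. Of 12275 genes 21 passed (0.171%), 14 lower with siRelA (0.114%) and 7 higher (0.057%). RELA itself read 5.03 and 5.00 with siRelA and 6.61 and 6.92 with siRelB (adjusted p = 0.0269), while RELB read 5.85 and 6.14 with siRelA and 5.09 and 6.30 with siRelB, and that difference did not pass (0.30 ± 0.26, adjusted p = 1). RELB was thus low under both siRNAs, and RELA under siRelA. Against siNC, 151 of the 164 genes lower with siRelA were also negative with siRelB, and 56 were called lower there. Of the 74 higher genes 67 were positive with siRelB, and 24 were called higher. Opposite calls were found for 2 genes. Over all 12275 genes siRelB gave 97 lower and 47 higher calls, with a median log2 change of 0.04. The share of all genes with a negative or a positive siRelB change is not given here. The siRelA and siRelB changes are both taken against the same siNC arrays, so some agreement in sign and in calls is built in. Whether shared changes followed from less RELA or less RELB was not tested. VNN1 read 4.47 and 4.51 with siRelA, 6.68 and 7.25 with siRelB and 8.95, 9.21, 8.89 and 9.14 with siNC (siRelA against siRelB, adjusted p = 0.000851). G0S2, an inhibitor of lipolysis, read 8.13 and 8.45 with siRelA, 9.24 and 9.97 with siRelB and 9.5, 9.56, 9.44 and 10.17 with siNC (siRelA minus siRelB -1.32 ± 0.16, adjusted p = 0.00865). The siRelB arrays of G0S2 overlapped siNC, and those of VNN1 lay between the siRelA and siNC arrays.

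Among the genes that did not pass in this direct test were several with deep falls under siRelA. CXCL8 differed by -2.63 ± 0.50, adjusted p = 0.0999, TNFAIP3 by -2.10 ± 0.38, adjusted p = 0.0825, BIRC3 by -1.74 ± 0.33, adjusted p = 0.0999, MMP1 by -2.16 ± 0.45, adjusted p = 0.139 and IL1A by -2.14 ± 0.47, adjusted p = 0.165, all lower with siRelA. ALOX5AP differed by -0.04 ± 0.26, adjusted p = 1, IL6 by 0.09 ± 0.54, adjusted p = 1 and CXCR4 by 0.09 ± 0.23, adjusted p = 1. CXCL10, not detected with siRelA, read 5.00 and 5.57 with siRelB (adjusted p = 1). A missed threshold does not show that the siRNAs acted alike. On simulated data with independent arrays the test recovered 30% of changes of 1 log2 unit and 89% of changes of 2, with 8 false calls.

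Histone genes classed as clustered by their symbols, not by position, made up 8 of the 14 that were lower with siRelA than with siRelB. This group was noticed after the values were seen. H2BC21 read 6.69 and 7.06 with siRelA, 9.65 and 9.69 with siRelB and 8.54, 8.43, 8.56 and 8.57 with siNC (siRelA minus siRelB -2.80 ± 0.22, adjusted p = 0.000909). H2AC18 read 10.52 and 10.65 with siRelA, 12.42 and 12.42 with siRelB and 12.64, 11.94, 12.38 and 12.38 with siNC (-1.83 ± 0.24, adjusted p = 0.0152). H2BC21 was low with siRelA and high with siRelB relative to siNC, and H2AC18 was low with siRelA while siRelB lay within the siNC range. The others were H2BC5, H2AC6, H2AC7, H2BC11, H3C10 and H2BC12L. Over the 40 measured histone genes so classed, 6 were called lower with siRelA relative to siNC, against 1.34% of all genes, and none higher. Of the 40 changes 21 were negative, with a median of -0.09. Relative to siNC, siRelB gave 4 higher calls (47 over all genes), no lower call and a median of 0.33. H2BC11 and H3C10 did not pass against siNC (adjusted p = 0.087 and 0.60), and both siRelB arrays of each lay above all siNC arrays. Both comparisons share the siNC arrays, and histone copies are near-identical, so probes may read several. The remaining genes lower with siRelA were SNCAIP, MPP4 and PLD5, of which SNCAIP read 5.51 and 5.43 with siRelA, 7.34 and 7.37 with siRelB and 5.69, 5.74, 5.75 and 5.73 with siNC, and PLD5 was not detected with siRelA or siNC. Higher with siRelA than with siRelB were SLAMF7, TSPAN8, GCNT2, VIPR1, SCG2, ABCC3 and SPINK4. Without a siRelA or siRelB array 2 or 3 of the 21 calls were left, and in the second set all 21 were among 923.

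**Figure D5:**
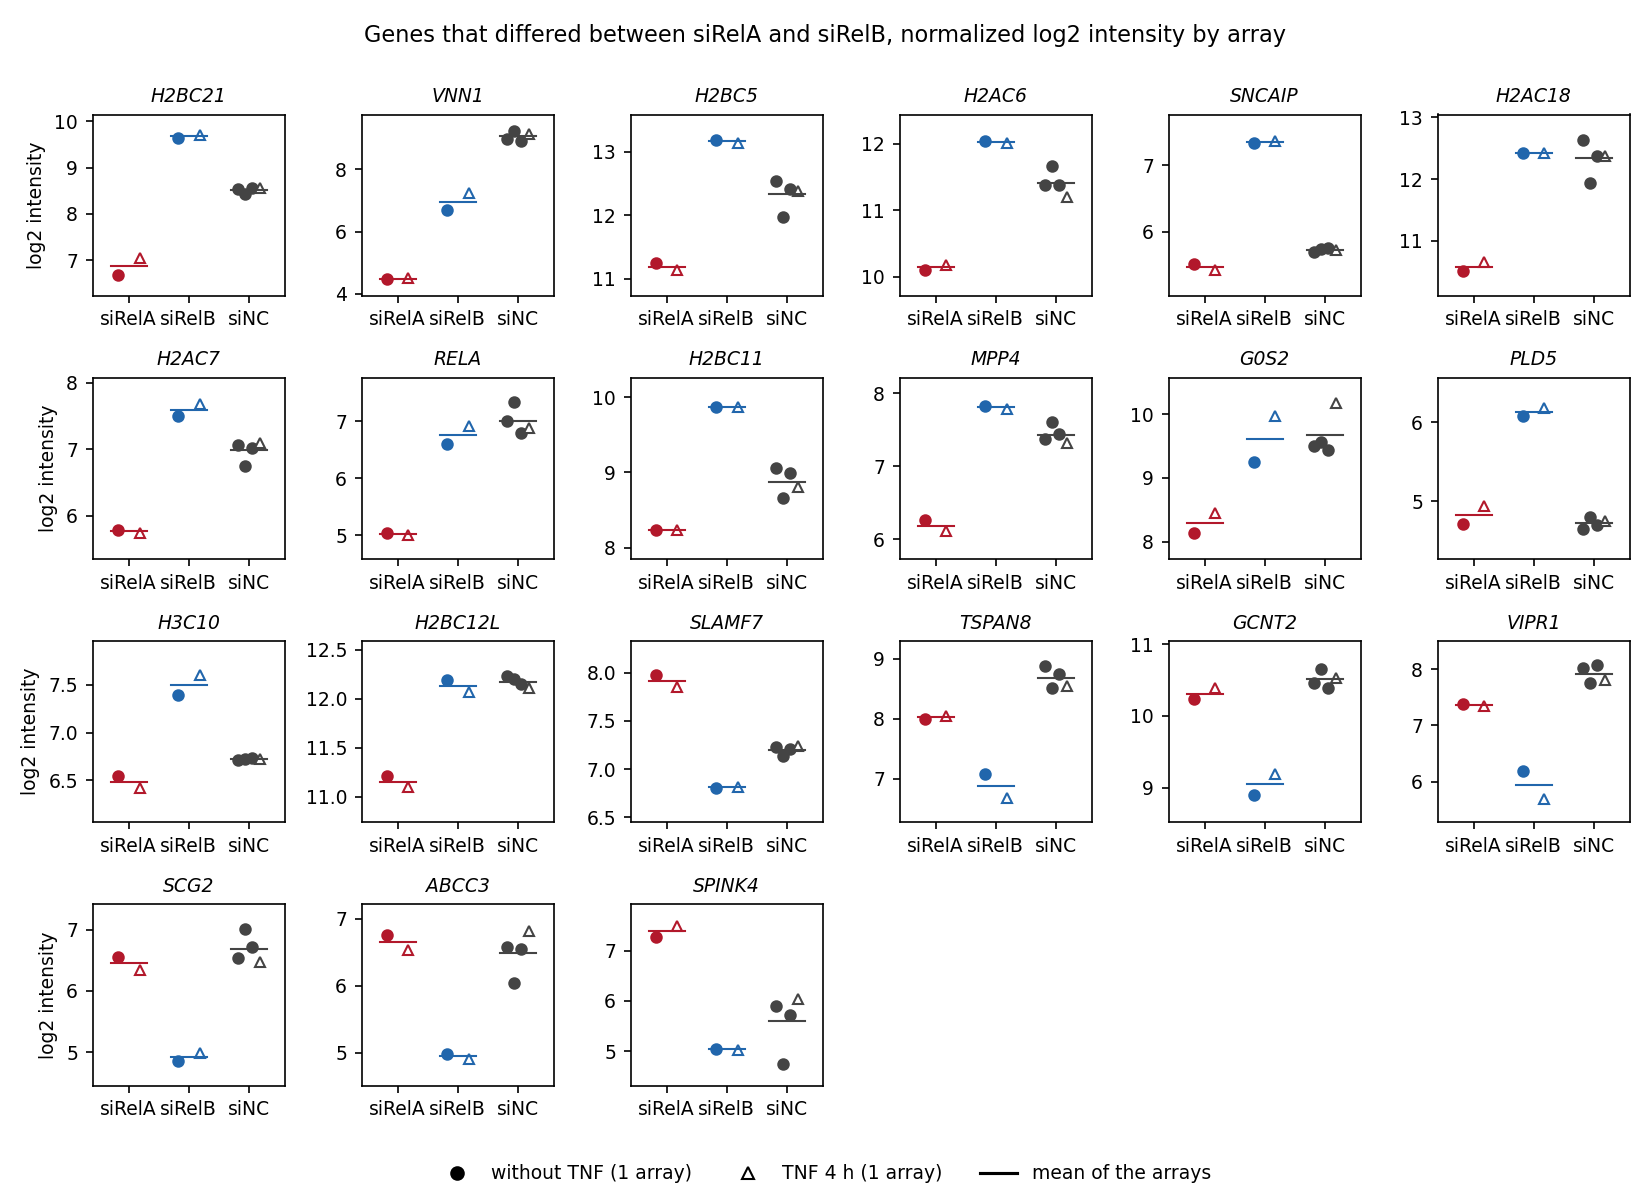
Normalized log2 intensity, array by array, of the 21 genes that differed between siRelA and siRelB (points, filled without TNF and open with TNF, group means as lines), with siRelA on the left, siRelB in the middle and siNC on the right. VNN1 and the histone genes are lowest with siRelA, whereas TSPAN8, GCNT2, VIPR1, SCG2 and ABCC3 are lowest with siRelB.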

How the data were processed

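Total RNA was measured on 12 single-colour bead arrays with 22184 probes each. The authors' deposited files hold each probe's average signal intensity per array, not normalized, a detection score (a deposited fraction from 0 to 1, with 1 minus it the detection p-value) and the number of beads averaged per probe. BeadStudio 3.2.7 is named per the submitters' processing notes. The authors' deposited processed values, on a log2 scale and centred separately in 2 sets of arrays (4 and 8), served as an alternative, and their zero point is unknown. Their medians per array lay between -0.05 and 0.05 in the first set and between -0.12 and 0.21 in the second. The 2 sets were inferred by comparing these values with the log2 signals, as the labels do not name them.

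Intensities were background-corrected (normexp, offset 16, with background from the detection scores), quantile-normalized and put on a log2 scale with limma 3.58.1 in R 4.3.3. Probes detected (detection p under 0.05) on at least 3 of 12 arrays were kept, and the probe with the highest mean stood for its gene. Symbols were updated through RefSeq: 17828 were current, 3305 synonyms, 868 unmatched and 183 ambiguous. limma's lmFit and eBayes fitted siRNA and TNF over all 12 arrays, with Benjamini-Hochberg adjustment over 12275 genes at 0.05. Whether arrays came from separate cultures is not stated in the sources used here, so p-values measure the spread between arrays, which may be technical. Of the 8 groups 6 hold 1 array. On simulated data the siRelA against siNC test recovered 57% of changes of 1 log2 unit and 91% of changes of 2, with 13 false calls. The simulated arrays varied independently, whereas real replicate arrays deviated together, so these rates may not hold here. A bound ("at least N-fold lower") sets the bright arrays' mean against the higher of the lowest detected signal and the gene's own signal on each dim array.

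Members and lists were chosen with earlier results of these data known. Genes named were the 25 lowest and the 25 highest that passed, any called member of 36 lists, and counterparts of called genes. Every member of 5 of these lists was named too (NF-kB subunits, IkB and IKK, neutrophil chemokines with CCL20, interferon regulatory factors, AHR partners). MHC class II genes, and the genes that differed between siRelA and siRelB (histone genes, G0S2 and SNCAIP among them), were named outside this rule after their values were seen. Replicate numbers 1 to 3 of siNC and siEZH2 without TNF deviated together (correlations 0.757, 0.836 and 0.654), but the siRelA arrays carry no replicate number shared with siNC. Some genes that this rule names are not reported here.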

Additional observations from a re-analysis of the deposited data

How the results depend on the processing

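The direction of change was kept by all 238 genes under every alternative that tested them (the filter on 6 arrays tested 11321 genes), and the number of calls was not. These alternatives reuse the arrays by which the 238 were picked, so the kept direction is no independent check. Beside 238 genes (164 lower, 74 higher), the 2 siRelA and 4 siNC arrays alone gave 31 (25 lower, 6 higher), a mean per group 25, the second set 2148 (1067 lower, 1081 higher), array weights 2274 (1110 lower, 1164 higher), the authors' processed values 101 and the same with the set as a term 358 (232 lower, 126 higher). Chosen after seeing the data, leaving out both replicate 2 arrays gave 1520 (798 lower, 722 higher) and leaving out the siEZH2 arrays 133. Leaving out 1 array gave 40 to 463. A random replicate block gave 254, of which 212 were among the 238, and for siRelA against siRelB 17. The set as a term, other scaling, no background correction and other filters gave 210 to 289. For siRelA against siRelB, 21 became 923 in the second set, 1501 with array weights, 36 with the authors' values and the set term, 592 without both replicate 2 arrays, and 2 to 74 without 1 array (74 without siNC replicate 2, 36 without siEZH2 replicate 2). The interaction gave 0 calls in all settings run. The cause of these shifts was not tested. The siRelA group has 2 arrays, 1 in each TNF state, and dim genes have only bounds.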
